A study of Mus musculus with 6 samples.

Results

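The transcripts of the mouse mitochondrial genome were described in 3T3-L1 cells at day 7 of adipocyte differentiation and at day 0. The members are the rows of the deposited count table whose gene name begins with mt-, and there were 37 of them among 43760 rows. They comprise 13 protein-coding genes, 2 ribosomal RNA (rRNA) genes and 22 transfer RNA (tRNA) genes, which is every gene that the annotation places on chromosome M. The rule uses names only and no measured value.

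3T3-L1 is an established mouse fibroblast line that can be turned into fat-storing adipocytes, and the labels call it wild type. The day 7 group holds 3 libraries from cells differentiated with IBMX, insulin, dexamethasone and rosiglitazone (roziglitazone in the labels), and the day 0 group holds 3 libraries from undifferentiated cells. Total RNA was sequenced after an Illumina stranded total RNA preparation. No day 7 culture without the cocktail is among the samples, so differentiation, exposure to the agents and time in culture cannot be told apart. All cells come from 1 line, and the labels do not say whether libraries of a day came from separate cultures. P-values therefore measure only the spread between these libraries. In these whole-culture libraries, fewer cells of a type and less RNA per cell cannot be told apart.

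The mitochondrial genome is a small circle of DNA carried in many copies per cell. Its proteins are core subunits of respiratory complexes I, III and IV and of the ATP synthase (complex V), while all other subunits are encoded in the nucleus and imported. Both strands are transcribed into long polycistronic RNAs, from which tRNAs that lie between the other genes are cut out, releasing rRNAs and mRNAs. All mRNAs except mt-Nd6 come from the heavy-strand transcript. White adipocytes use mitochondria to make citrate and ATP, which triglyceride synthesis consumes.

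The genes are packed with almost no space between them. On build GRCm38 with the GENCODE M21 annotation, mt-Rnr1, the 12S rRNA gene, lies at chrM:70-1024 and mt-Rnr2, the 16S rRNA gene, at chrM:1094-2675. The tRNA gene mt-Tv (chrM:1025-1093, plus strand) fills the whole interval between them, and mt-Tl1 (chrM:2676-2750, plus strand) fills the interval from mt-Rnr2 to mt-Nd1. Both are shown because they are the pieces cut out to free the rRNAs.
mt-Tv: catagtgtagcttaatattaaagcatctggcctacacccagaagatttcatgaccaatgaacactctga
mt-Tl1: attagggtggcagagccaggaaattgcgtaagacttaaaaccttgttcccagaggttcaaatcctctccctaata

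Some neighbouring mRNAs share bases, so a read inside them cannot be assigned by position alone, and counts can be uncertain to that extent. Counts of mt-Atp8, mt-Nd5 and mt-Nd6 were whole in every library, so no division of reads shows in those rows. The end of mt-Atp8 shares 43 bases with the start of mt-Atp6 (chrM:7927-7969), and the end of mt-Nd4l shares 7 with the start of mt-Nd4 (chrM:10167-10173). On the minus strand the end of mt-Nd6 shares 14 bases with the end of mt-Nd5 (chrM:13552-13565). Their strands are opposite, so a read there is ambiguous only if strand was not used. The sequences below run 5′ to 3′ on the strand of the named gene, and capitals mark the shared bases. They cover chrM:7880-7969, chrM:10144-10173 and chrM:13552-13611.
mt-Atp8, last 90 bases: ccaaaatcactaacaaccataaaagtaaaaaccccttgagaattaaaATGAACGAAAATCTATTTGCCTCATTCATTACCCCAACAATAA
mt-Nd4l, last 30 bases: gtccaaaatctcaacctactacaATGCTAA
mt-Nd6, last 60 bases: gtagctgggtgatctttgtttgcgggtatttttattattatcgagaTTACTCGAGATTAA

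A second source of uncertainty is copies of mitochondrial DNA in the nuclear genome, which the annotation lists as pseudogenes and which have rows of their own in the table. A stretch of chromosome 1 (chr1:24611535-24616197, minus strand, 4663 bases) holds 7 of them in a row, from part of mt-Co1 to part of mt-Nd4. Gm28661, the copy of mt-Co2 (chrM:7013-7696), was identical over all 681 bases aligned. The first 60 bases of both are shown, chrM:7013-7072 on the plus strand and chr1:24615506-24615565 on the minus strand, because no read inside them can be assigned by sequence.
mt-Co2: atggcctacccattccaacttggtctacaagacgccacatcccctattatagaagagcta
Gm28661: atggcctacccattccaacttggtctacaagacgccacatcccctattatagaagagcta
Gm10925 (mt-Atp6, 678 bases), Gm28437 (mt-Co3, 783 bases), Gm10222 (mt-Nd4l, 294 bases) and Gm28439 (the first 876 bases of mt-Nd4) were also identical to their parents over the bases given. In Gm28438, the copy of mt-Nd3, 345 bases aligned with 1 substitution, T3C, counted from 1 at the first base of mt-Nd3 with the mitochondrial base first. In Gm29216, 483 bases aligned to the end of mt-Co1 with 1 substitution, A1066T, counted from the first base of mt-Co1. The windows around both substitutions, at chrM:9459-9476 and chrM:6390-6408, carry the differing base in capitals.
mt-Nd3: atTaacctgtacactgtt
Gm28438: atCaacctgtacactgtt
mt-Co1: ggaAttgttttatccaact
Gm29216: ggaTttgttttatccaact
More distant copies were Gm13339 of mt-Nd2 (96.67% identity), Gm13340 of mt-Co1 (97.61%) and Gm13341 of mt-Co2 (95.91%) on chromosome 2, and Gm4076 of mt-Nd5 (95.18%) on chromosome 13.

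Library totals ranged from 7655822 to 16987076 estimated counts at day 7 and from 10805962 to 14132016 at day 0. The 10 most abundant rows, among them mt-Rnr1, mt-Rnr2 and mt-Co1, held 44.3% to 59.2% of counts at day 7 and 44.0% to 49.3% at day 0. The second day 7 library stood apart with the highest of these shares and the lowest scaling factor, 0.778, against 0.963 to 1.14 in the other libraries. Among the 10 rows Yam1, not a mitochondrial row, alone held 27.3% to 35.0% of counts at day 7 and 32.4% to 38.2% at day 0. Marker levels are given in CPM, counts scaled to a common library total adjusted by the scaling factor. Summed adipocyte markers (7 rows, none at 0 in every library) reached 3409 to 5610 CPM at day 7. At day 0 they gave 28.9 to 36.0 CPM. Of these rows Lep had only 1 count, in the first day 7 library. Preadipocyte or fibroblast markers (6 rows) gave 659 to 1243 CPM at day 7 and 4390 to 4959 CPM at day 0. Among these rows Cd34 had at most 5 counts in a library. Markers of macrophages (4 rows), endothelium (4 rows) and skeletal muscle (3 rows, Myod1, Myog and Acta1, with 2 of the 3 at 0 in every library) each summed to under 2 CPM in every library.

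Mitochondrial transcripts took a larger part of the counts at day 7. Together the 37 rows held 9.49%, 13.7% and 11.8% of counts in the day 7 libraries, in the order of the table, against 3.20%, 3.43% and 3.64% in day 0 replicates 1, 2 and 3. Every day 7 library lay above every day 0 library, with means of 11.7% ± 2.12 at day 7 and 3.42% ± 0.219 at day 0 (SD, n = 3 each). The 13 mRNAs accounted for 3.45% ± 0.715 at day 7 and 1.25% ± 0.101 at day 0, and the 2 rRNAs for 8.22% ± 2.43 at day 7 and 2.17% ± 0.12 at day 0. Each of these 3 differences had a two-sided exact permutation p of 0.1 (0.1 after Benjamini-Hochberg adjustment over the 3 shares), the smallest that 3 against 3 libraries can give. Most of the rise lay in the rRNAs, and how the preparation treated rRNA is not given. The second day 7 library had the highest rRNA share, 10.9%, and the lowest mRNA share of day 7, 2.81%. With the rows of nuclear copies counted in, the share of all mitochondrial rows was 12.5% ± 1.94 at day 7 and 3.83% ± 0.248 at day 0.

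Over all genes, 30.8% of 12354 tested rows were higher at day 7 and 29.2% were lower at an adjusted p under 0.05 (edgeR quasi-likelihood test, Benjamini-Hochberg over all tested rows), with a median log2 fold change of 0.02. All 13 mRNA and both rRNA rows passed the filter on low counts and were tested, and none of the 22 tRNA rows did. Of the 15 tested, 13 rose. None fell, whether or not p-values were adjusted, as all 15 log2 fold changes were positive. The rows mt-Nd3 and mt-Nd4l did not pass the threshold, and the median log2 fold change of the 15 was 1.65. In 13 of the 15 every day 7 library lay above every day 0 library, against 34.2% of all tested rows. Levels below are TMM-scaled CPM, given for the day 7 libraries in the order of the table, from the first to the third, and then for day 0 replicates 1, 2 and 3.

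**Figure D1:**
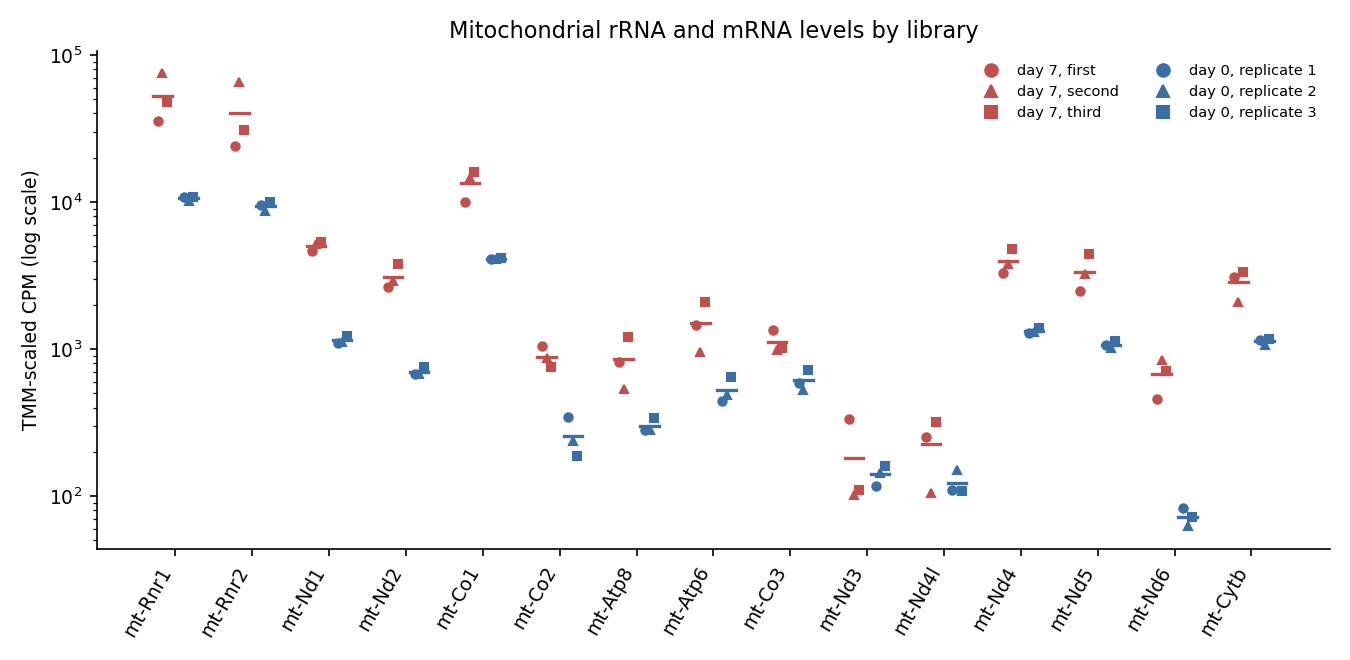
TMM-scaled CPM (log axis) of the 2 rRNAs and 13 mRNAs in each library as deposited, in genome order, with day 7 in red left of day 0 in blue and a line at each group's mean. For mt-Nd3 and mt-Nd4l the groups overlap, and for the other 13 transcripts all day 7 points lie above all day 0 points.

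The rRNAs, the RNA core of the mitochondrial ribosome, were the most abundant members at both days. mt-Rnr1, the small-subunit rRNA, had 35312, 74915 and 47876 CPM at day 7, against 10797, 10215 and 10753 CPM at day 0. It rose by a log2 fold change of 2.32 ± 0.38 (SE, adjusted p = 0.00122). mt-Rnr2, the large-subunit rRNA, had 24214, 65462 and 30647 CPM at day 7, against 9557, 8725 and 9950 CPM at day 0. It rose by 2.09 ± 0.43 on the log2 scale (adjusted p = 0.00394). For both, the second day 7 library was the highest, and the spread between day 7 libraries (SD 20237 and 22192 CPM) was far wider than that between day 0 libraries (SD 324 and 625 CPM). No source used here says how the preparation treated rRNA.

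The proportion of the 2 rRNAs varied between the day 7 libraries. Their ratio, mt-Rnr1 over mt-Rnr2, was 1.46, 1.14 and 1.56 at day 7, against 1.13, 1.17 and 1.08 at day 0. The second day 7 library lay within the day 0 range and the other day 7 libraries above it. The mean log2 ratio was higher by 0.29 at day 7 (two-sided exact permutation p = 0.2; 0.267 adjusted over the 4 ratios compared here). Summed rRNA counts over summed mRNA counts gave 1.87, 3.88 and 1.79 at day 7 and 1.80, 1.70 and 1.71 at day 0. That difference of 0.44 in mean log2 ratio (exact permutation p = 0.2, adjusted 0.267) rested on the second day 7 library, and without it was 0.08. With copies added to the mRNAs the ratio was 1.45, 3.25 and 1.42 at day 7, against 1.37, 1.27 and 1.31 at day 0. The groups then no longer overlapped, but only by a narrow gap, and the second day 7 library was again far the highest. The mean log2 ratio with copies differed by 0.52 (exact permutation p = 0.1, the smallest possible).

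Complex I takes electrons from NADH, and its mitochondrial subunits form the core of the membrane arm that pumps protons. Of its 7 mitochondrial genes 5 rose as deposited, against 30.8% of all tested rows. mt-Nd1, whose protein sits where ubiquinone docks, had 4614, 5150 and 5334 CPM at day 7, against 1102, 1121 and 1235 CPM at day 0. It rose 4.37-fold, by 2.13 ± 0.19 on the log2 scale (adjusted p = 5.53e-05), and its day 7 libraries lay close together. mt-Nd2, a proton-pumping subunit, had 2626, 2891 and 3818 CPM at day 7, against 673, 673 and 753 CPM at day 0 (log2 fold change 2.15 ± 0.21, adjusted p = 8.54e-05). Its counts were fractional in 4 libraries.

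The other large pump subunits, mt-Nd4 and mt-Nd5, also rose, with smaller log2 fold changes whose difference from those of mt-Nd1 and mt-Nd2 was not tested. mt-Nd4 had 3293, 3808 and 4812 CPM at day 7 and 1280, 1304 and 1391 CPM at day 0, a log2 fold change of 1.58 ± 0.21 (adjusted p = 0.000393). mt-Nd5 had 2466, 3230 and 4400 CPM at day 7 and 1067, 1016 and 1138 CPM at day 0, a log2 fold change of 1.65 ± 0.24 (adjusted p = 0.00074). For both, the third day 7 library was highest and the first lowest, with a clear gap to all day 0 libraries.

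mt-Nd6, the only mRNA of the light-strand transcript (chrM:13552-14070, minus strand), had the largest change of all 15 tested transcripts. It had 455, 847 and 714 CPM at day 7, against 83.3, 62.5 and 72.2 CPM at day 0. It rose 9.25-fold, by 3.21 ± 0.26 on the log2 scale (adjusted p = 3.83e-05), and its lowest day 7 library was above its highest day 0 library many times over. The preparation marks strand, but the strand setting of the authors' counting is not given in the sources used here. Reads of opposite-strand RNA over mt-Nd6 are kept out only if strand was used.

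The remaining complex I members, mt-Nd3 and mt-Nd4l, are short mRNAs with close nuclear copies. mt-Nd3 had 337, 101 and 110 CPM at day 7, against 116, 143 and 161 CPM at day 0, so the groups overlapped and only the first day 7 library was high. Its log2 fold change was 0.38 ± 0.44 (adjusted p = 0.482), and without the first day 7 library it was -0.42 (adjusted p = 0.0623). mt-Nd4l had 251, 105 and 321 CPM at day 7 and 109, 150 and 108 CPM at day 0, a log2 fold change of 0.88 ± 0.37 (adjusted p = 0.0716). Here the second day 7 library lay below every day 0 library, and its log2 fold change was 1.22 once that library was left out (adjusted p = 0.00235).

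mt-Cytb, cytochrome b, is the sole mitochondrial subunit of complex III, which passes electrons from ubiquinol to cytochrome c. It had 3091, 2080 and 3343 CPM at day 7, against 1146, 1075 and 1179 CPM at day 0. The groups did not overlap, and mt-Cytb rose 2.50-fold, by 1.32 ± 0.22 on the log2 scale (adjusted p = 0.00134).

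Complex IV, cytochrome c oxidase, has 3 mitochondrial subunits that form its catalytic core, and all 3 rose, against 30.8% of all tested rows. mt-Co1, which holds the site where oxygen is reduced, had 10028, 14637 and 15963 CPM at day 7, against 4082, 4092 and 4161 CPM at day 0 (log2 fold change 1.72 ± 0.26, adjusted p = 0.000861). mt-Co2, which receives electrons from cytochrome c, had 1051, 864 and 751 CPM at day 7 and 344, 237 and 189 CPM at day 0 (log2 fold change 1.79 ± 0.25, adjusted p = 0.000559). mt-Co3 had 1356, 983 and 1018 CPM at day 7, against 586, 528 and 726 CPM at day 0. Its log2 fold change of 0.87 ± 0.20 (adjusted p = 0.00628) was the smallest among the 13 that rose. Scaled by total counts alone, mt-Co3 gave 0.66 (adjusted p = 0.0606).

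The ATP synthase has a pair of mitochondrial subunits, read from 1 overlapping mRNA. mt-Atp6, part of the proton channel, had 1470, 957 and 2095 CPM at day 7 and 443, 489 and 648 CPM at day 0, a log2 fold change of 1.52 ± 0.30 (adjusted p = 0.00324). mt-Atp8 had 819, 536 and 1208 CPM at day 7, against 280, 280 and 340 CPM at day 0, a log2 fold change of 1.51 ± 0.29 (adjusted p = 0.00255). In both the third day 7 library was highest and the second lowest, and all lay above day 0.

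The nuclear copies took a large part of the counts of several of these genes. Of the counts of mt-Co2 and its copies together, the copies held 75.4% to 87.9% over the 6 libraries. Copies held 61.2% to 71.1% for mt-Atp6, 55.9% to 70.4% for mt-Co3, 25.9% to 70.1% for mt-Nd3 and 31.4% to 72.6% for mt-Nd4l. For mt-Co1 they held 1.78% to 4.50%, for mt-Nd4 0.325% to 0.717%, and for mt-Nd2 and mt-Nd5 at most 0.0165%. The chromosome 1 rows together held 0.955%, 0.547% and 1.10% of all counts at day 7, against 0.361%, 0.432% and 0.416% at day 0. Counts were fractional in all 6 libraries for mt-Co1, mt-Nd4, mt-Co3, mt-Atp6, mt-Nd4l and mt-Nd3 and in 5 for mt-Co2, and whole in all 6 for mt-Rnr1, mt-Rnr2, mt-Nd1, mt-Nd5, mt-Cytb, mt-Nd6 and mt-Atp8. Where parent and copy are identical, mitochondrial and nuclear origin of a read cannot be told apart, and the division between the rows is uncertain.

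The division also differed between libraries of a day. For mt-Nd4l the copy held 50.2%, 72.6% and 52.9% of the summed counts at day 7, against 52.6%, 31.4% and 57.0% at day 0, so the groups overlapped. For mt-Nd3, its copy Gm28438 held 5607, 1828 and 1893 counts at day 7, against 905, 1104 and 677 counts at day 0. The mt-Nd3 row itself held 5946, 995 and 808 counts at day 7 and 1328, 2309 and 1935 counts at day 0. Thus Gm28438 held 48.5%, 64.8% and 70.1% of the summed counts at day 7, against 40.5%, 32.3% and 25.9% at day 0. Gm28661, with 65606, 26033 and 28769 counts at day 7 and 12693, 19717 and 16365 counts at day 0, had more counts than mt-Co2 in every library.

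**Figure D2:**
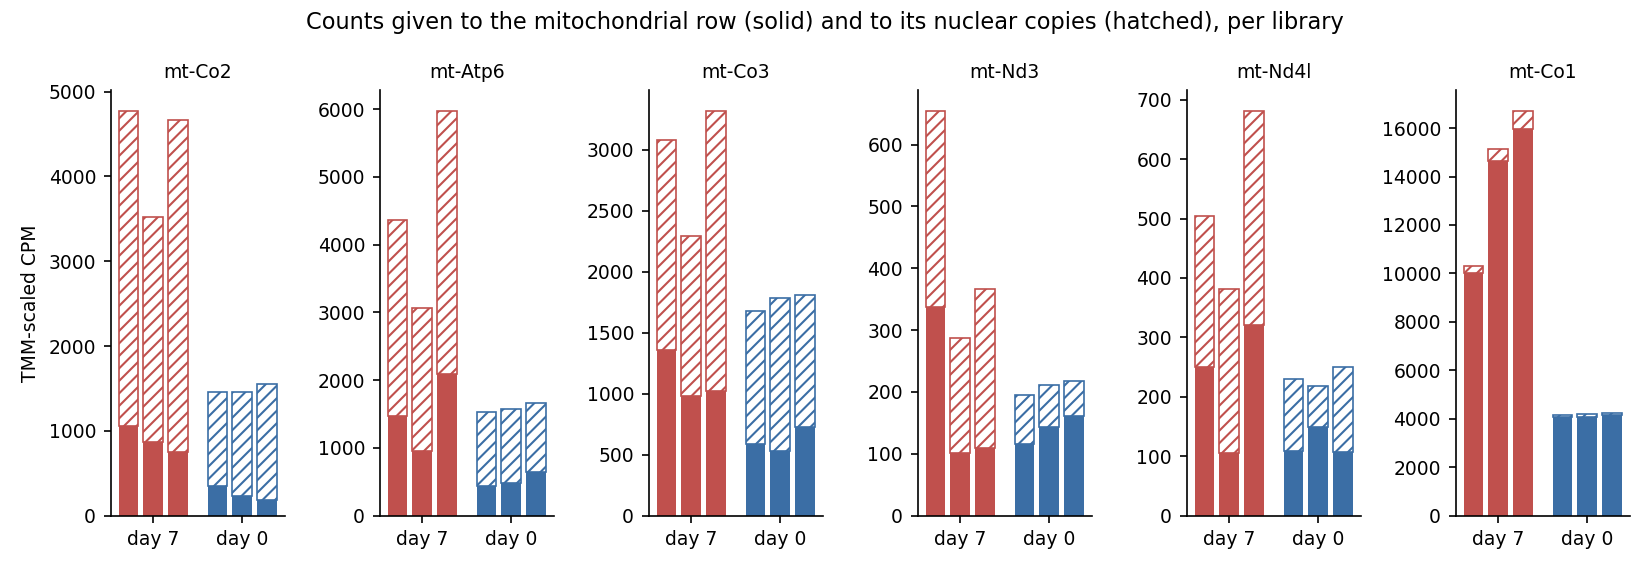
TMM-scaled CPM given to the mitochondrial row (solid) and to its nuclear copies (hatched) for 6 genes, with the 3 day 7 libraries in red left of the 3 day 0 libraries in blue. The summed bars vary less between day 0 libraries than the solid parts do for mt-Co2, mt-Atp6, mt-Co3, mt-Nd3 and mt-Nd4l, and for mt-Co1 the hatched part is small.

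With each copy's counts added to its parent before the fit, an alternative chosen after seeing the data, the spread within day 0 shrank for these genes. mt-Co2 then had 4772, 3517 and 4663 CPM at day 7, against 1458, 1463 and 1554 CPM at day 0, so the day 0 SD was 54.1 CPM around a mean of 1492 instead of 79.5 CPM around a mean of 256. mt-Nd3 had 655, 287 and 367 CPM at day 7 and 196, 212 and 218 CPM at day 0. mt-Nd4l had 503.9, 382 and 682 CPM at day 7 and 231, 219 and 251 CPM at day 0. In both, every day 7 library now lay above every day 0 library.

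In that fit, across 12345 rows of which 30.8% were higher at day 7, all 15 members rose. mt-Nd3 rose by 1.07 ± 0.29 on the log2 scale (adjusted p = 0.0133) and mt-Nd4l by 1.16 ± 0.22 (adjusted p = 0.00227). mt-Co2 gave 1.53 ± 0.20, against 1.79 from its own row, and mt-Co3 gave 0.72 ± 0.20 (adjusted p = 0.0143), the smallest change of the 15. mt-Atp6, at 1.49 ± 0.27, mt-Nd4, at 1.58 ± 0.20, and mt-Co1, at 1.75 ± 0.26, moved little from the values of their own rows. The median over the 13 mRNAs was 1.53 with copies added and 1.58 as deposited.

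**Figure D3:**
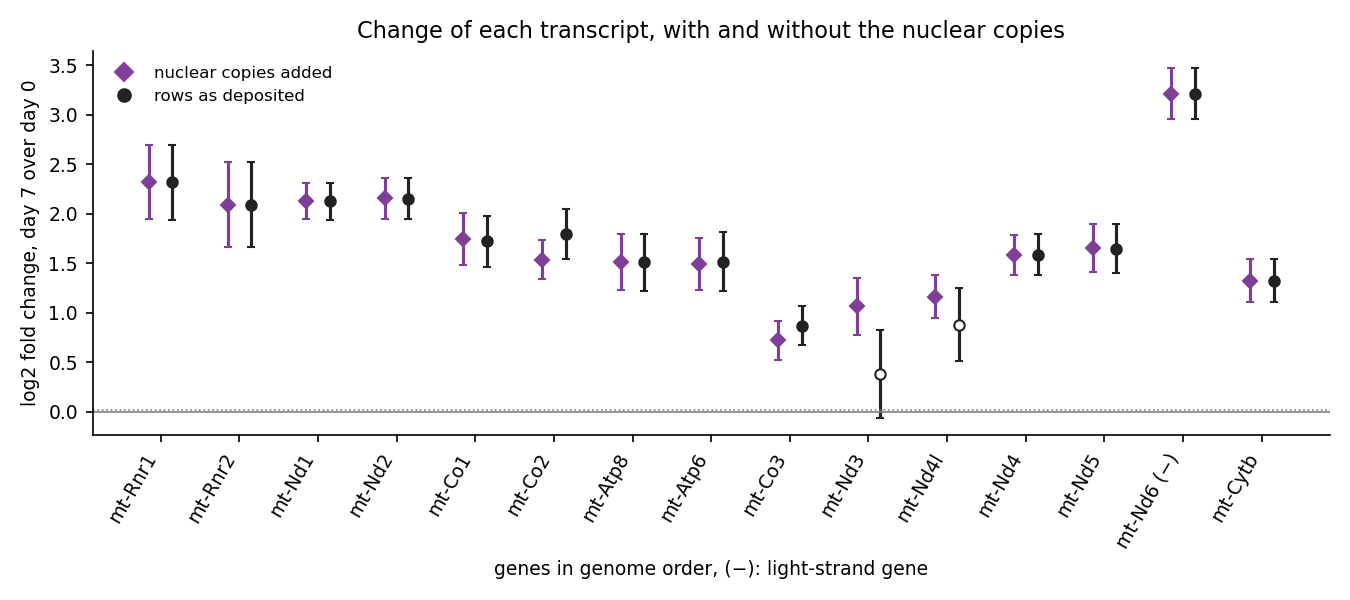
Log2 fold change of day 7 over day 0 with its standard error for the 15 tested members in genome order, with nuclear copies added (purple diamonds) or rows as deposited (black circles, open where the adjusted p was 0.05 or more). The dotted line is the median of all tested rows, 0.02. mt-Nd6 lies highest at 3.21, and mt-Nd3 and mt-Nd4l are the 2 open circles.

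Levels of different mRNAs were set side by side per length, as a description. With copies added, mt-Co1 was highest at both days, at 9098 ± 2166 CPM per kilobase at day 7 and 2714 ± 28.1 at day 0 (SD, n = 3 each). mt-Atp6 followed with 6565 ± 2146 CPM per kilobase at day 7 and 2334 ± 104 at day 0, and mt-Co2 with 6312 ± 1017 at day 7 and 2181 ± 79.0 at day 0. At day 7 these 3 lay within their spread of each other, as did several neighbours below them. Between the highest and lowest heavy-strand mRNA the ratio of means was 7.26 at day 7 (mt-Co1 over mt-Nd3) and 4.61 at day 0 (mt-Co1 over mt-Nd5). At day 7 mt-Nd3, at 1254 ± 555, lay within its spread of mt-Nd4l, at 1759 ± 508. Levels were divided by the full gene length, and no source used here gives fragment sizes. How far this affects short mRNAs such as mt-Nd3 (348 bases) was not tested. The rRNAs were higher per kilobase than any mRNA, with 55197 CPM per kilobase for mt-Rnr1 and 25359 for mt-Rnr2 at day 7, against 11085 and 5948 at day 0.

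**Figure D4:**
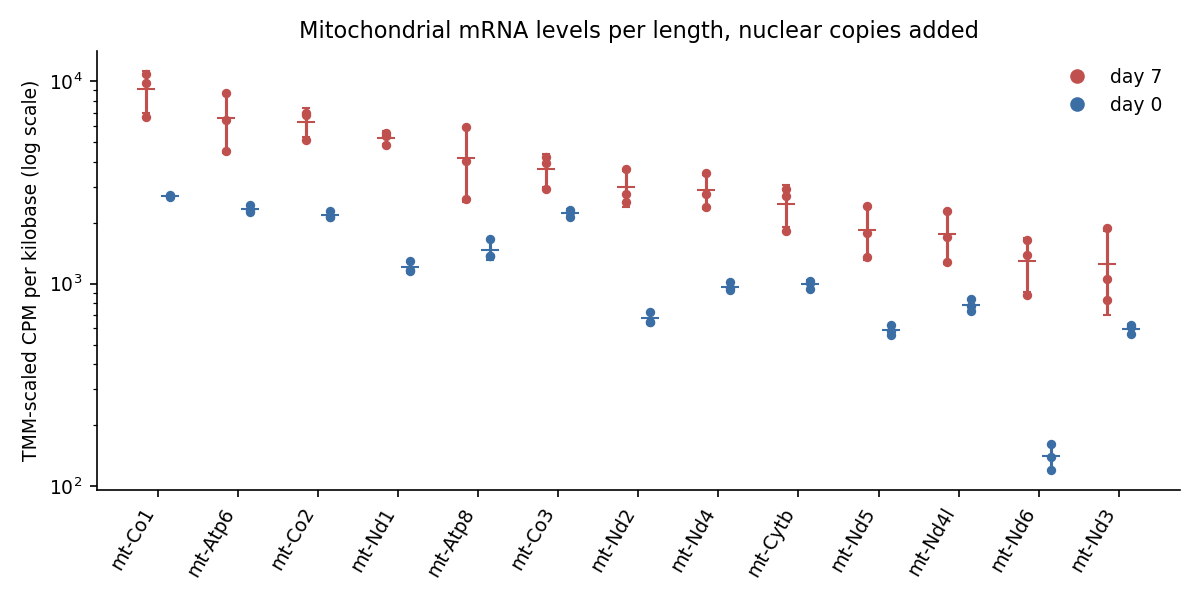
TMM-scaled CPM per kilobase (log axis) of the 13 mRNAs with nuclear copies added, ordered by the day 7 mean, with day 7 in red left of day 0 in blue, points for libraries and bars for mean ± SD. The order differs between the days, with mt-Co3 among the 3 highest at day 0 and mt-Nd6 lowest there by a wide gap.

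The order of the mRNAs per length, again with copies added, was not the same at both days. mt-Nd1 stood at place 4 of 13 at day 7 and 6 at day 0, and mt-Nd2 at place 7 at day 7 and 10 at day 0. mt-Co3 stood at place 6 at day 7 and 3 at day 0. As shares of the summed mRNA level per kilobase, mt-Nd1 made up 10.4%, 12.4% and 9.39% at day 7, against 7.02%, 7.09% and 7.28% at day 0. mt-Co3 made up 8.48%, 6.75% and 7.13% at day 7, against 13.02%, 13.74% and 13.01% at day 0. In 3 mRNAs, mt-Nd1, mt-Nd2 and mt-Nd6, every day 7 share lay above every day 0 share, and in mt-Co3 and mt-Nd4l every day 7 share lay below. For the other 8 the groups overlapped with copies added. In the rows as deposited, mt-Nd3 and mt-Cytb also had every day 7 share below every day 0 share. By place as deposited, mt-Nd1 stood at 2 at day 7 and 3 at day 0, and mt-Nd2 at 4 and 8. mt-Co3 stood at 9 at day 7 and 6 at day 0. Shares of a library add to a fixed total, so they do not vary independently. No such shares were computed for other rows, and whether this separation exceeds what 3 against 3 libraries give by themselves was not tested.

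mt-Nd6 changed most relative to its neighbours. Per base it reached 64.9%, 92.2% and 57.0% of mt-Nd5, the heavy-strand gene whose end it overlaps, at day 7, against 27.4%, 21.6% and 22.3% at day 0. Its mean log2 ratio to the 12 heavy-strand mRNAs was higher by 1.51 at day 7, with no overlap of the groups (two-sided exact permutation p = 0.1, the smallest possible; 0.267 adjusted over the 4 ratios). With copies added to the heavy-strand sum the difference was 1.59.

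How short and long mRNAs compared differed between pairs of day 7 libraries. With copies added, the log2 ratio of the second to the first day 7 library averaged -0.73 over the 3 mRNAs under 400 bases (mt-Atp8, mt-Nd4l and mt-Nd3), against 0.15 over the 6 above 900 bases. It ran from -1.19 for mt-Nd3 to 0.90 for mt-Nd6. For the third over the first day 7 library the means were 0.05 for the short and 0.49 for the long mRNAs. For the third over the second they were 0.79 for the short and 0.34 for the long, the opposite order. Between day 0 replicates 2 and 1 the same means were 0.01 for the short and -0.02 for the long mRNAs. Across the 13 mRNAs, which share their libraries, length and the log2 ratio had a Pearson r of 0.55 for the second over the first, 0.44 for the third over the first and -0.33 for the third over the second, with Spearman rho of 0.53, 0.35 and -0.35, given as a description. The part of transcript length in the differences between day 7 libraries was not tested.

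The 22 tRNAs were almost absent from the table. They had 6 counts in the 3 day 7 libraries together and 3 in the 3 day 0 libraries. Over all libraries mt-Tm had 4 counts, mt-Tp 2, and mt-Te, mt-Tv and mt-Tw 1 each. The other 17 (mt-Ta, mt-Tc, mt-Td, mt-Tf, mt-Tg, mt-Th, mt-Ti, mt-Tk, mt-Tl1, mt-Tl2, mt-Tn, mt-Tq, mt-Tr, mt-Ts1, mt-Ts2, mt-Tt and mt-Ty) had none. A count of 0 allows a share of up to 3.92e-05% in the shallowest library (3 counts, counting error only). The tRNA genes are 59 to 75 bases long, and no source used here gives the fragment sizes that the libraries retain. A change in tRNA abundance was not detectable from these counts.

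Respiratory complexes need matched supplies of mitochondrial and nuclear subunits, and most nuclear subunits also rose. Over all tested rows, 30.8% were higher at day 7 and 29.2% were lower. All 36 tested nuclear complex I genes rose (median log2 fold change 1.36), with Ndufs1, the largest iron-sulfur subunit, at 2.30 ± 0.11 (adjusted p = 5.53e-06) and Ndufv1, which binds NADH, at 2.29 ± 0.14 (adjusted p = 1.32e-05). All 9 of complex III rose (median 2.13), led by Uqcrfs1, the Rieske protein, at 2.704 ± 0.23 (adjusted p = 5.03e-05) and Cyc1, cytochrome c1, at 2.44 ± 0.20 (adjusted p = 3.94e-05). All 11 of complex IV rose (median 1.503), led by Cox4i1 at 2.09 ± 0.25 (adjusted p = 0.000233) and Cox6a1 at 1.94 ± 0.18 (adjusted p = 7.03e-05). Of 16 complex V genes 14 rose (median 1.19), with catalytic Atp5b at 2.29 ± 0.15 (adjusted p = 1.7e-05) and Atp5c1 at 1.81 ± 0.24 (adjusted p = 0.000393). Atpif1, which inhibits the enzyme, fell by 0.43 ± 0.16 on the log2 scale (adjusted p = 0.0455), and Atp5g2, a c-ring gene, was at -0.01 ± 0.10 (adjusted p = 0.938).

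Set against these, the summed mitochondrial mRNAs showed no shift in balance that all day 7 libraries shared. The 13 mRNAs had 3.95, 4.99 and 7.71 times the counts of the nuclear subunits at day 7, against 4.93, 5.11 and 5.18 times at day 0. The day 7 libraries fell on both sides of the day 0 range, and the mean log2 ratio differed by 0.07 (two-sided exact permutation p = 0.9, also 0.9 after adjustment over the 4 ratios). With copies added the difference was -0.01, and without the third day 7 library it was -0.19. A p of this size does not show that the balance is the same, since the day 7 libraries differed by an SD of 0.49 in log2 ratio, against 0.04 at day 0.

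By complex, with copies added, the ratio of mitochondrial to nuclear counts overlapped between the days in complexes I, IV and V. In complex III, mt-Cytb had 3.09, 2.52 and 5.15 times the counts of its nuclear partners at day 7, against 5.56, 5.67 and 5.80 times at day 0, so every day 7 library was lower (exact permutation p = 0.1, the smallest possible; 0.4 adjusted over the 4 complexes). In complex I the ratio was 5.89, 7.15 and 11.4 at day 7, against 6.31, 6.50 and 6.69 at day 0. In each complex the third day 7 library had the highest ratio of the day 7 libraries.

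**Figure D5:**
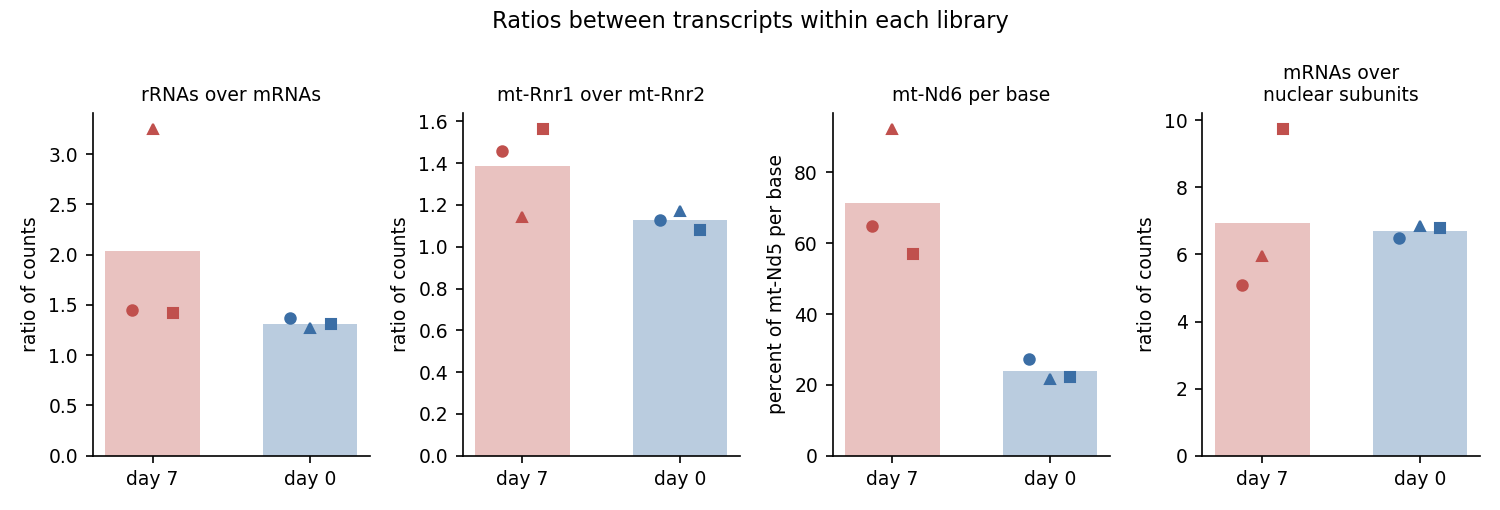
Ratios within each library for summed rRNAs over summed mRNAs with copies added, mt-Rnr1 over mt-Rnr2, mt-Nd6 per base as percent of mt-Nd5, and mitochondrial mRNAs over nuclear subunits with copies added. Bars are means of 3 libraries, with day 7 in red left of day 0 in blue and a marker for each library, circle, triangle and square in the order of the table. mt-Nd6 separates the days by a wide gap, and rRNAs over mRNAs by a narrow one. The ratio to nuclear subunits spreads widely around the day 0 values at day 7.

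Mitochondrial transcripts are made by a nuclear-encoded RNA polymerase, Polrmt, with the promoter factors Tfam and Tfb2m. Of 10 genes listed for mitochondrial transcription 7 rose, none fell and 3 did not pass the threshold, with a median log2 fold change of 1.02. Over all tested rows, 30.8% were higher and 29.2% were lower. Tfb2m rose by 1.51 ± 0.16 (adjusted p = 0.00014) and Mrpl12, a ribosomal protein that also binds the polymerase, by 2.16 ± 0.23 (adjusted p = 0.000135). Polrmt, chosen after its value was seen, had 18.9, 18.8 and 15.2 CPM at day 7 and 10.3, 9.88 and 9.51 CPM at day 0 (log2 fold change 0.84 ± 0.14, adjusted p = 0.00126). Tfam, which packages the DNA and bends its promoters, had 17.7, 14.0 and 14.8 CPM at day 7, against 15.3, 16.9 and 15.6 CPM at day 0, with overlapping groups and a log2 fold change of -0.03 ± 0.14 (adjusted p = 0.859). The close paralogs Mterf1a and Mterf1b had log2 fold changes of 0.41 (adjusted p = 0.252) and 0.96 (adjusted p = 0.11).

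Genes for replication and the nucleoid, where the DNA is held, rose in 9 of 11 tested (median 0.98), against 30.8% of all tested rows. They were led by Atad3a, a membrane protein of the nucleoid region, at 1.71 ± 0.13 (adjusted p = 3.04e-05) and the nuclease Mgme1 at 1.33 ± 0.16 (adjusted p = 0.000263). Those that did not pass were Rnaseh1 (-0.19, adjusted p = 0.582) and Top3a (0.16, adjusted p = 0.63).

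RNA processing and stability genes rose in 14 of 20 tested, against 30.8% of all tested rows, with a median of 0.88. Fastkd1, of a family that binds mitochondrial RNA, rose by 1.98 ± 0.25 (adjusted p = 0.000334), and Elac2, which trims tRNA 3′ ends, by 1.65 ± 0.16 (adjusted p = 9.15e-05). Pnpt1, the mitochondrial polynucleotide phosphorylase that degrades RNA, was the only one to fall. It had 22.3, 23.7 and 23.4 CPM at day 7, against 44.4, 38.7 and 42.8 CPM at day 0, and fell by 0.86 ± 0.10 on the log2 scale (adjusted p = 0.000232). The partners Lrpprc and Slirp, which together stabilise heavy-strand mRNAs, were picked after their values were seen. Lrpprc rose by 1.58 ± 0.15 (adjusted p = 7.68e-05) and Slirp was at -0.36 ± 0.16 (adjusted p = 0.0826). Fastkd2, Fastkd3, Rexo2 and Pde12 also did not pass, with log2 fold changes from -0.34 to 0.45.

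Genes that modify mitochondrial rRNA and tRNA rose in 15 of 23 tested and fell in 2, with a median of 0.79. Over all tested rows, 30.8% were higher and 29.2% were lower. Rpusd3, a pseudouridine synthase family member, rose by 3.19 ± 0.29 (adjusted p = 6.57e-05), and Tfb1m, the 12S rRNA methyltransferase, by 1.996 ± 0.22 (adjusted p = 0.000185). The tRNA modifiers Gtpbp3 and Alkbh1 fell by 0.38 ± 0.12 (adjusted p = 0.0304) and 0.44 ± 0.14 (adjusted p = 0.0278). Translation factors rose in 10 of 11 tested (median 1.06). Among them were Taco1, which activates translation of mt-Co1, at 2.24 ± 0.24 (adjusted p = 0.000146) and Gfm2, which recycles mitochondrial ribosomes, at 1.86 ± 0.16 (adjusted p = 4.73e-05). Mrpl58 did not pass (0.34, adjusted p = 0.412).

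Of 8 regulators of mitochondrial biogenesis 3 rose and 2 fell, with a median of 0.17, and such shares are near those over all tested rows, 30.8% higher and 29.2% lower. The coactivator Ppargc1b had 61.4, 41.0 and 36.7 CPM at day 7, against 1.32, 0.808 and 0.584 CPM at day 0, and rose by 5.69 ± 0.32 on the log2 scale (adjusted p = 9.77e-06). The nuclear receptor Esrra rose by 2.08 ± 0.12 (adjusted p = 9.67e-06) and the coactivator Ppargc1a by 1.27 ± 0.33 (adjusted p = 0.0114). The related coactivator Pprc1 fell by 0.76 ± 0.14 (adjusted p = 0.00207) and Gabpb1, a subunit of a factor that binds promoters of respiratory genes, by 0.63 ± 0.17 (adjusted p = 0.0146). Nrf1, Gabpa and Yy1 did not pass, with log2 fold changes from -0.01 to 0.21.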

How the data were processed

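RNA of 3T3-L1 cells was sequenced at day 7 and day 0, with 3 libraries per day. The deposited values are estimated counts for each gene in each library, as read from the values themselves. Trim Galore 0.6.7, STAR 2.7.10a, Salmon 1.9.0 and build GRCm38 were used, per the submitters' processing notes. For the annotation release, strand setting and filters, no source used here gives them. The day 7 columns share 1 replicate number in the header, so they are named by their order in the table. A side block of 10 columns was not used.

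Estimated counts were rounded. Rows were filtered with filterByExpr (minimum count 10, minimum total 15), scaled by TMM and tested with edgeR 4.0.16 (quasi-likelihood, R 4.3.3), with p-values adjusted by Benjamini-Hochberg over all 12354 tested rows and a threshold of 0.05. The biological coefficient of variation was 0.186. Shares and ratios used unrounded counts and two-sided exact permutation tests over libraries. Each pair of libraries of a day, scaled by totals, differed by more than sampling noise (chi-square per gene of 6.77 or more). Each library was counted as 1 replicate, though such a difference does not show that libraries came from separate cultures. Repeated names (85, on 198 rows) were kept as separate rows, and Mtif3, which has such a name, was not used.

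Locations and sequences come from GENCODE M21 transcripts on GRCm38. Nuclear copies were found with blastn 2.17.0 at 95% identity or more over at least 150 bases, and all 11 had a row. Gm10221, also listed as a candidate copy, had no such match and was not added. Counts not whole by more than 0.01 were called fractional.

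All 15 tested members are named. From each gene list the 2 largest called rises and 2 largest called falls are named, and members that spell out small counts were chosen after their values were seen. Members and lists were chosen with earlier results of these data known. Alternatives were RLE and total-count scaling, library sizes without mitochondrial or the 10 most abundant rows, no filter, DESeq2 1.42.0, limma-voom (limma 3.58.1), leaving out each library, other denominators, leaving out mt-Atp8 and mt-Nd4l, and adding nuclear copies. The code was tested on simulated data.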

Additional observations from a re-analysis of the deposited data

How the results depend on the processing

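The count of 13 members higher at day 7 ran from 12 (total counts only) to 15 (nuclear copies added) over 14 alternatives, with 14 under DESeq2, with no filter and without the second day 7 library. The count of members lower was 0 in every one. Leaving out 1 library gave log2 fold changes for mt-Nd3 from -0.42 to 0.67, with the sign reversed without the first day 7 library, and for mt-Nd4l from 0.54 to 1.22. The cause was not tested. Over these alternatives, 203 of 210 gene values kept direction and side of the threshold. Total-count scaling moved the median log2 fold change of all rows to -0.21 and mt-Co3 to 0.66.

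The log2 ratio of mitochondrial mRNAs to nuclear subunits, 0.07, was -0.0093 with nuclear copies added, and leaving out 1 library gave -0.19 to 0.29. The other ratios and the shares kept their direction. No paired analysis was possible because the day 7 columns carry no distinct replicate numbers, so the planned replicate block was not run. Genes with close copies are limited by the division of reads, and tRNAs by the near absence of counts.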
